A study of Mus musculus with 78 samples.

Results

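The genes described here are the mouse zinc finger genes whose symbol is Zfp followed only by digits, together with Zik1 and without Zfp36, which belongs to another finger class. A gene was taken when its raw read counts summed to at least 100 over the 18 total RNA libraries of a nutrient deprivation experiment. That left 294 genes of the 14695 rows in the count table. The members were thus chosen by their summed counts, and those sums are a description and no evidence. Just inside the minimum were Zfp457 with 105 reads, Zfp30 with 119 and Zfp300 with 127, and just outside it were Zfp704 with 60, Zfp811 with 37 and Zfp575 with 30.

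The libraries came from activated CD8+ T cells, the cytotoxic lymphocytes, isolated from C57BL/6J spleens and lymph nodes and used at day 3 after activation. For the nutrient experiment, cells were held for 3 h in full medium (Control) or without arginine, without the branched-chain amino acids (BCAA), without glucose, without glutamine or without methionine. In the drug experiment they received DMSO (the solvent), halofuginone (an inhibitor of prolyl-tRNA charging), Torin (an inhibitor of the mTOR kinase) or 4EGi1 (an inhibitor of the joining of eIF4E to eIF4G). Each condition gave 3 libraries of total RNA from the lysate and 3 of polysome RNA, the pooled gradient fractions 9 to 13 that carry messages loaded with ribosomes. No genotype, transgene or knockout separated the groups, and no label tells if the 3 libraries of a group came from separate cultures or animals. The p-values therefore cover the spread among these libraries, which may be technical. The labels name the nutrient libraries total RNA and the drug libraries polyA RNA, and the experiments were tested apart. The ratio of polysome to total RNA describes how much of a message is found with ribosomes, relative to the other messages.

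Most of these genes encode proteins with tandem C2H2 fingers, small loops held by a zinc ion that read DNA one after another. Many carry a KRAB domain as well, which binds the co-repressor TRIM28 and through it the histone methyltransferase SETDB1, and so places repressive chromatin over retroelements and imprinted loci. The KRAB zinc finger genes arose by repeated tandem duplication, lie in clusters, and are in most tissues weakly transcribed. A smaller set without KRAB has other roles, in ribosome quality control, in spindle assembly or at ordinary promoters. Reads of the near-identical cluster copies can be split between neighbours by the authors' counting, so values of single cluster genes are uncertain to that extent.

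Promoter windows were read for the members from RefSeq (build GRCm38.p6, which is older than the GRCm39 build of the counts), and 243 of 294 had one. Motifs were searched over the whole window, which can run past the start site. GC content and CpG pairs were counted in its 250 bases upstream of that site. The motif shown first, ACTACAA and TCC with any single base between them, lies within the sequence bound by ZNF143, the human counterpart of Zfp143, which is itself a member and whose polysome RNA is described further on. Searched on both strands, it lay in 10 of the 243 windows (4.12%), against 1.11% of the 27025 RefSeq genes with a window and 1.61% of the 17491 protein-coding ones. The 10 stretches follow, each 5′ to 3′ along the gene with the motif or its reverse complement in capitals. A match of letters is a description and not a binding site.

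Zfp1, chr8:111643409-111643437, plus strand: ggcattatgGGAATTGTAGTcctacacct
Zfp128, chr7:12881154-12881182, plus strand: ggccttctgGGAATTGTAGTctcagtgtc
Zfp180, chr7:24081866-24081894, plus strand: agagttctgGGAATTGTAGTtccattgag
Zfp358, chr8:3493104-3493132, plus strand: ctcgagcgaACTACAAGTCCcagcagctc
Zfp58, chr13:67500533-67500561, minus strand: agacttgtgGGAATTGTAGTctggccact
Zfp606, chr7:12478272-12478300, plus strand: ctctttgaaACTACAACTCCcaatagtcc
Zfp691, chr4:119174355-119174383, minus strand: aacctccgaACTACAACTCCcagcatgcc
Zfp692, chr11:58307012-58307040, plus strand: ctaaggctaACTACAATTCCcggcaggct
Zfp93, chr7:24270338-24270366, plus strand: ggaattctgGGAATTGTAGTtccaacgcc
Zfp933, chr4:147848431-147848459, minus strand: ttccaaagaACTACAATTCCcagcattcc

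In 9 of the 10 the motif began between 15 and 71 bases before the start site, and in Zfp691 at 179 bases. The element TTGCATCA, bound by pairs of C/EBP and ATF proteins such as ATF4, was in 0 of the 243 windows and in 0.929% of all windows. The E-box CACGTG was in 22 windows (9.05%), against 7.24% of all and 7.9% of the protein-coding ones. Of the 10 genes with the ZNF143 motif, 1, 5, 8, 4 and 8 were called higher in total RNA without arginine, BCAA, glucose, glutamine and methionine (10.0%, 50.0%, 80.0%, 40.0% and 80.0%). Of the 232 tested members with a window and no such motif it was 7.76%, 35.8%, 46.6%, 40.9% and 48.7%, and of all genes 5.1%, 16.4%, 21.8%, 20.4% and 19.5%. In polysome RNA, which is described further on, the motif genes stood at 60.0%, 60.0%, 80.0%, 60.0% and 80.0% and the others at 44.4%, 64.2%, 68.5%, 63.8% and 64.7%. The motif genes were thus above the others in some conditions and not in others, and the difference was not tested.

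Whole upstream windows of 250 bases are shown for 3 members that the results return to, Zfp110 and Zfp759, which rose in the polysomes under every deprivation, and Zfp239, which fell in both fractions under every deprivation. The CpG pairs, the sites of DNA methylation, are in capitals. The windows are chr7:12834511-12834760, chr13:67127978-67128227 and chr6:117861774-117862023, all on the plus strand.

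Zfp110: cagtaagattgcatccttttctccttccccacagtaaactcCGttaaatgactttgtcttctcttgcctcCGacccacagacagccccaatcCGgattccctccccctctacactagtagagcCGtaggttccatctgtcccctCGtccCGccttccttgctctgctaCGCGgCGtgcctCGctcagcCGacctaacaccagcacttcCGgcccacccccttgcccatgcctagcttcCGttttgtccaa
Zfp759: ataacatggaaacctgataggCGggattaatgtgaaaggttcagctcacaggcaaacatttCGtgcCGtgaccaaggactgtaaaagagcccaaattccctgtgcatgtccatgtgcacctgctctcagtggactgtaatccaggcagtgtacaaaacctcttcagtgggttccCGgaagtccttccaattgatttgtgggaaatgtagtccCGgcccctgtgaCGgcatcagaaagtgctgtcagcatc
Zfp239: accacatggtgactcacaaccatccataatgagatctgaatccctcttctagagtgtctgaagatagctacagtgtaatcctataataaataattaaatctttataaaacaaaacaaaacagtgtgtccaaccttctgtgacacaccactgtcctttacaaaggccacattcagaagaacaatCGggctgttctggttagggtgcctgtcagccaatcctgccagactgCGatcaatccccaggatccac

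These windows hold 13, 6 and 2 CpG pairs with 56.8%, 49.6% and 42.8% GC. Over the same upstream bases of the 243 windows the median was 10 CpG pairs and 53.6% GC.

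The 60 libraries held 15144663 to 54272886 counted reads each, and the members took 0.2914% to 0.7902% of them. In the nutrient experiment 293 members passed the filter on low counts in total RNA, 293 in polysome RNA and 294 in the fit of both, and in the drug experiment 289, 283 and 289. Levels are CPM, reads of a gene relative to the library's depth, scaled by TMM, which corrects for differences in library make-up but not for transcript length. The median member stood at 8.25 CPM in the Control total RNA, against 14.1 over all rows. Of the CD8 T cell markers, 9 of 10 were in the table and summed to 1980 to 6720 CPM. B cell markers summed to 9.83 to 142 CPM over 3 of 6 genes, with Ighm the most counted and Cd79a between 0 and 0.599. The myeloid gene Cd68 lay between 3.72 and 15.9 CPM, and Foxp3 of the CD4 list between 0 and 2.76.

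**Figure D1:**
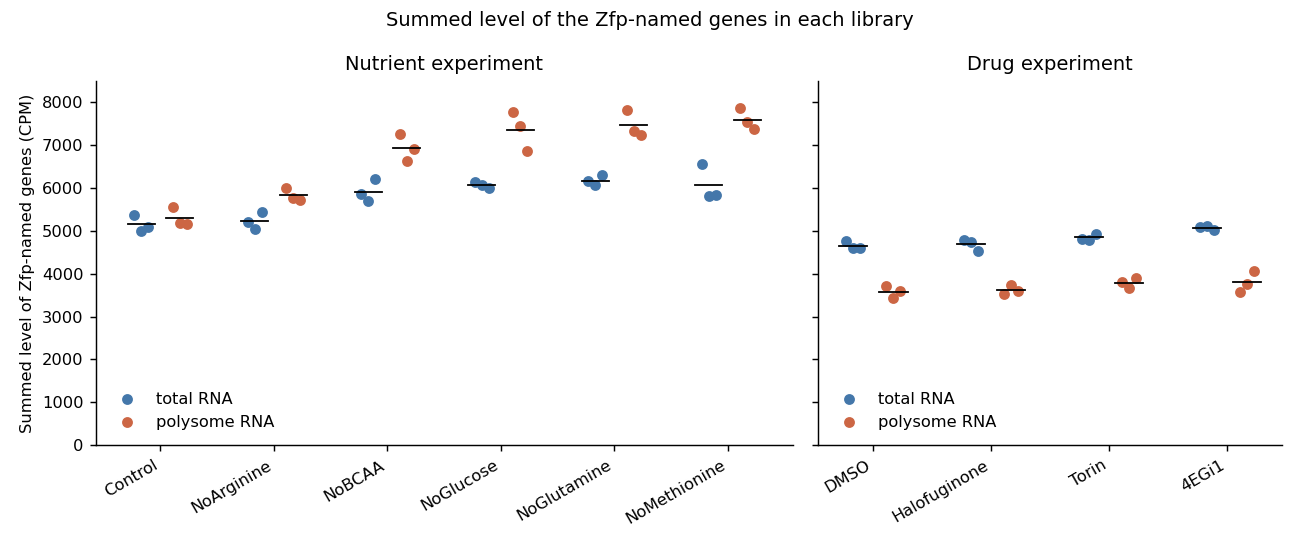
Summed level of the 294 Zfp-named genes in CPM (TMM-scaled), 1 point for each library, with a black line at the mean of the 3 libraries; total RNA is blue and polysome RNA orange. In polysome RNA of the nutrient experiment the mean runs from 5302 CPM in Control to 7601 without methionine, and in total RNA from 5152 to 6175.

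In total RNA more Zfp-named genes were called higher than lower under each of the 5 deprivations, with few calls of either kind without arginine. Their summed level was 5152 ± 201 CPM in Control (mean ± SD, n = 3 here and below). It was 5229 ± 198 without arginine, 5920 ± 260 without BCAA, 6068 ± 69.7 without glucose, 6175 ± 119 without glutamine and 6073 ± 419 without methionine. A bulk library cannot tell more RNA in each cell from a change in which cells are present.

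Without glucose, 142 of 293 members rose and 24 fell (48.5% and 8.19%), while among all genes tested 21.8% rose and 19% fell, 40.8% in all. Without methionine 142 rose and 17 fell, against 19.5% and 15.7% of all genes (35.2% in all). Without glutamine 118 rose and 25 fell, against 20.4% and 18.6% (39% in all). Without BCAA 106 rose and 17 fell, against 16.4% and 13.6% (30.1% in all). Without arginine only 20 rose and 3 fell, where 5.1% and 4.14% of all genes did (9.24% in all). That arginine count of 23 dropped to 12 when Control replicate 1 was left out, to 10 for Control replicate 3 and to 15 for NoArginine replicate 1. The median log2 change of the members was 0.10 without arginine, 0.21 without BCAA, 0.32 without glucose, 0.23 without glutamine and 0.33 without methionine, and that of all genes lay between -0.01 and 0.03. Calls are from edgeR's quasi-likelihood test with Benjamini-Hochberg adjustment over all genes at 0.05. The deprivations share the 3 Control libraries, so their values stand side by side and are not independent of each other.

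**Figure D2:**
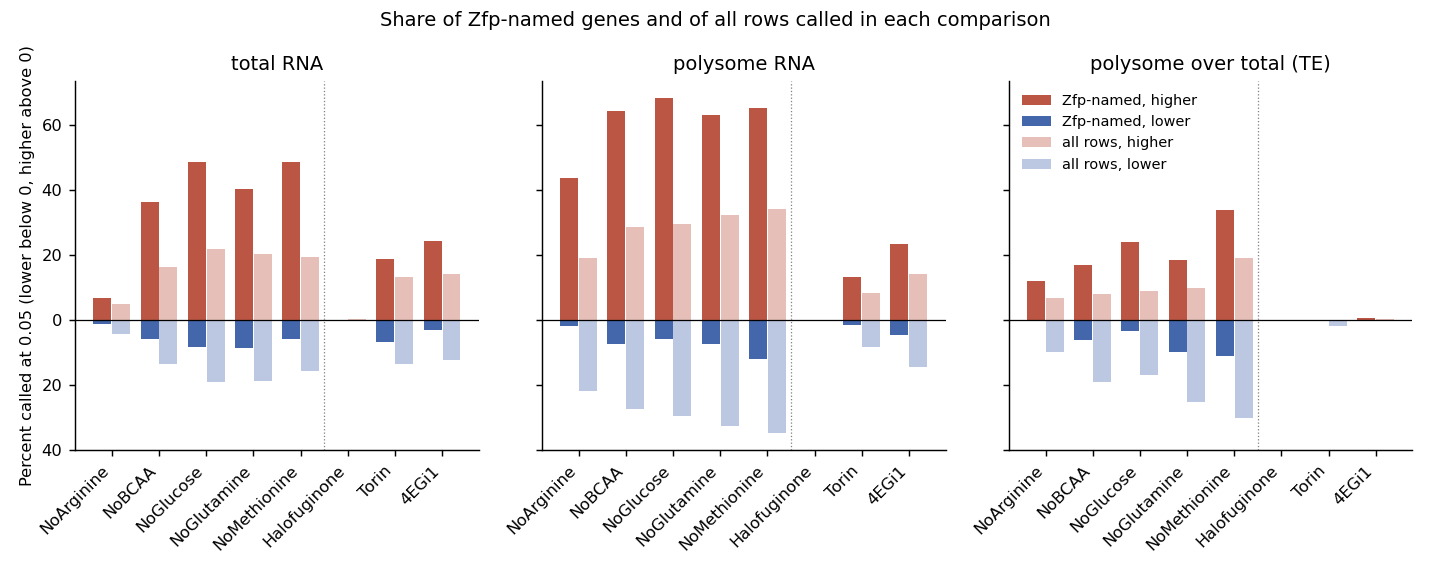
Percent of the tested Zfp-named genes (strong colours) and of all rows tested (pale colours) called higher (above 0) or lower (below 0) at an adjusted p of 0.05, in total RNA, polysome RNA and the polysome over total ratio (TE), for 5 deprivations against Control and 3 drugs against DMSO. In polysome RNA without glucose 68.3% of the members were higher, against 29.6% of all rows, and no member was called under halofuginone.

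Few members were called in total RNA with a change over 1 log2 unit in either direction. They were 1 without arginine, 6 without BCAA, 18 without glucose, 11 without glutamine and 26 without methionine. The same count over all genes was not made. Zfp959 stood at 6.94, 6.95 and 7.13 CPM in Control. It was at 20.6, 17.6 and 21.6 without BCAA, at 21.5, 19.2 and 20.6 without glutamine and at 19.2, 19.6 and 18.7 without methionine. All 9 libraries lay well above Control, and the log2 changes were 1.51 ± 0.09 (SE), 1.54 ± 0.09 and 1.45 ± 0.09, with adjusted p of 6.2e-11, 2e-11 and 1.2e-10.

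Zfp689 had the steepest rise without methionine, from 4.08, 5.51 and 3.6 CPM in Control to 16.2, 16.5 and 17.2, a log2 change of 1.92 ± 0.15 (adjusted p 2.8e-09). The groups were far apart. Its changes without the other nutrients were smaller but called in each, from 0.56 without arginine to 1.13 without glutamine. Zfp11 rose by 1.54 ± 0.13 without methionine and also without each other nutrient, from 0.38 to 0.80. Zfp995 and Zfp758 rose by 1.18 and 1.10 without BCAA, and Zfp952 and Zfp658 by 1.16 and 1.09 without glutamine.

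Zfp112 was called in total RNA without glucose and not under the other 4 deprivations. It was counted thinly, at 0.419, 0.466 and 0.746 CPM in Control, and reached 2.15, 2.03 and 2.88 without glucose, a log2 change of 2.10 ± 0.33 (adjusted p 3.6e-05). Its glucose libraries lay above all of Control, and above those of each other deprivation by 1.94 to 2.64 log2 units in the test between conditions, with adjusted p of 0.00019 or less. In polysome RNA it went from 0.332 to 0.485 CPM in Control to between 1.72 and 2.53 without glucose (log2 change 2.43 ± 0.32).

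Falls in total RNA were fewer. Zfp217, a transcription co-repressor known from breast cancer amplification, fell without glucose from 36.9, 33.3 and 34.5 CPM to 17.2, 16.8 and 17.5, a log2 change of -1.02 ± 0.09 (adjusted p 3.6e-08). Without BCAA it fell by 0.34, and without arginine, glutamine and methionine its changes of -0.04, -0.03 and -0.21 were not called. Zfp783 also fell without glucose, by 1.19 ± 0.21.

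Zfp251 fell most without methionine, from 34.8, 33.6 and 33.8 CPM to 16.6, 16.1 and 13.5, a log2 change of -1.14 ± 0.09 (adjusted p 1.7e-09). It fell by 0.87 without glutamine, by 0.45 without BCAA and by 0.37 without glucose. Zfp866 fell without methionine from 18.3, 15.9 and 16.8 CPM to 8.73, 7.21 and 8.66 (log2 change -1.05 ± 0.10) and rose without glutamine by 0.30. The 2 deprivations differed by 1.35 ± 0.10 (adjusted p 1.1e-08).

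Without glutamine, Zfp3 fell by 1.36 ± 0.31 and Zfp2, at 0.486 to 0.609 CPM in Control and 0.111 to 0.168 without glutamine, by 1.97 ± 0.43. Zfp773 fell under 4 deprivations, most without BCAA (-1.49 ± 0.30). Zfp239 fell under all 5, by 0.36 without arginine, 0.61 without BCAA, 0.58 without glucose, 0.89 without glutamine and 0.36 without methionine. The arginine call of Zfp239 was lost without Control replicate 1 or 3 or NoArginine replicate 1 or 2, at adjusted p of 0.070 to 0.15.

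In polysome RNA more of the members were called higher than in total RNA. The nutrient polysome libraries were also deeper, at 29917770 to 54272886 reads against 15144663 to 30637485 in total RNA. More of all genes were called there as well, and the part of depth in the counts was not tested. The summed level of the members was 5302 ± 229 CPM in Control, 5835 ± 156 without arginine, 6938 ± 309 without BCAA, 7363 ± 464 without glucose, 7465 ± 317 without glutamine and 7601 ± 250 without methionine. All libraries of all 5 deprivations lay above all of Control. The summed CD8 T cell markers stood at 2720 to 3260 CPM in the Control polysomes and at 2870 to 3130 without arginine. They were lower, and apart from Control, without BCAA (2300 to 2450), glucose (2070 to 2650), glutamine (1980 to 2400) and methionine (1980 to 2260). The summed B cell markers stood at 15 to 17.9 CPM in the Control polysomes, at 15.3 to 18.1 without glucose and at 9.83 to 11.5 under the other 4 deprivations. The part of either list in the result was not tested.

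Without glucose, 200 of 293 members rose and 17 fell in the polysomes, where 29.6% and 29.4% of all genes did (59% in all). Without methionine 191 rose and 35 fell (all genes 34.3% and 34.7%, 69% in all). Without BCAA 188 rose and 21 fell (28.7% and 27.4%, 56.1% in all), and without glutamine 185 rose and 21 fell (32.2% and 32.4%, 64.5% in all). Even without arginine 128 rose and 5 fell (19% and 21.6%, 40.5% in all). The median log2 change of the members was 0.25 without arginine, 0.45 without BCAA, 0.62 without glucose, 0.47 without glutamine and 0.61 without methionine, while the median over all genes lay between -0.03 and -0.01. Rises of over 1 log2 unit, or falls of that size, were seen in 97 members without methionine, 72 without glucose, 52 without glutamine, 36 without BCAA and 0 without arginine. In 206 members without glucose all 3 libraries lay above all 3 of Control, and in 17 all lay below. Neither these counts nor those of changes over 1 log2 unit were made over all genes, so they describe the members only.

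**Figure D3:**
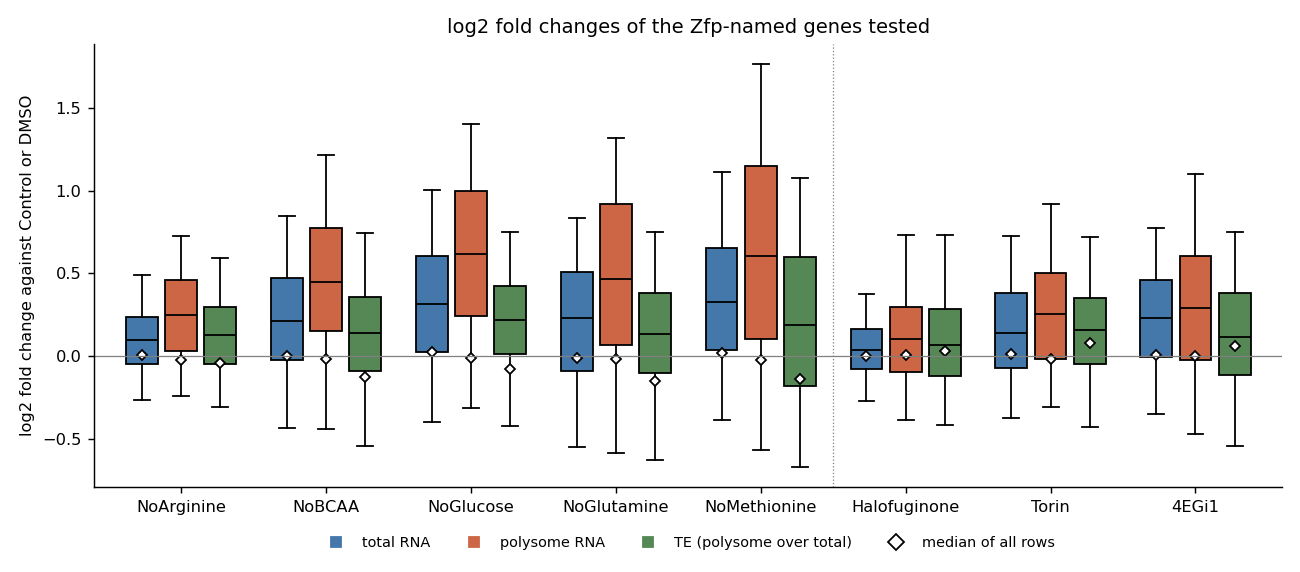
log2 fold changes of the Zfp-named genes tested, against Control or DMSO, for total RNA (blue), polysome RNA (orange) and the polysome over total ratio (green). Boxes are quartiles with the median, whiskers run from the 5th to the 95th percentile, and diamonds are the median of all rows tested; the polysome boxes of the deprivations have medians of 0.25 to 0.62 while the diamonds lie near 0.

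Zfp110, also known as the neurotrophin receptor-interacting factor NRIF, was among the 4 steepest rises in the polysomes under 4 of 5 deprivations. Its polysome level was 26.8, 25.2 and 26.2 CPM in Control and 54.9, 55.1 and 43.1 without arginine. It was 93.8, 81.6 and 86.8 without BCAA, 90.6, 86.4 and 74.5 without glucose, 97.8, 105 and 89.4 without glutamine and 117, 132 and 135 without methionine. No deprived library overlapped Control, and the methionine libraries were the highest. The log2 changes were 0.97, 1.74, 1.68, 1.90 and 2.29 in that order, each ± 0.10. In total RNA the same gene rose by 0.51, 0.93, 1.13, 1.05 and 1.05.

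Zfp84 rose in the polysomes from 18.6, 17.3 and 19.0 CPM in Control to 103, 104 and 104 without methionine, a log2 change of 2.51 ± 0.11 (adjusted p 1e-12). It also rose by 1.58 without BCAA, 1.5 without glucose, 0.99 without glutamine and 0.68 without arginine. Its methionine libraries lay above every other deprivation, by 0.92 to 1.82 log2 units in the test between conditions.

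Zfp759 rose from 1.35, 1.54 and 1.33 CPM to 8.17, 8.07 and 7.99 without methionine (log2 change 2.52 ± 0.13, adjusted p 1.1e-11). Without the other nutrients it rose by 0.87 to 1.71. In total RNA it rose without glucose and methionine, by 0.85 and 1.23, and its change of -0.03 without glutamine was not called. Zfp952 in the polysomes rose by 1.79 without glutamine and 1.95 without methionine, Zfp658 by 1.90 without glutamine, and Zfp383 by 1.93 without glucose. Zfp267 rose from 9.79, 9.33 and 9.87 CPM to 33.6, 36.1 and 33.5 without methionine (log2 change 1.83 ± 0.09).

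Zfp239 was also lower in the polysomes. It fell under every deprivation, from 11.9, 12.3 and 11.2 CPM in Control to 5.77, 5.45 and 4.71 without methionine (log2 change -1.15 ± 0.10), by 1.05 without BCAA, by 1.05 without glutamine, by 0.51 without arginine and by 0.41 without glucose. Zfp251 fell by 1.42 without methionine and by 1.06 without glutamine, while its change without glucose was 0.00 ± 0.09. Zfp395, known as a hypoxia-induced gene in human cells, rose without glucose (0.42 ± 0.15) and fell without glutamine (-1.27 ± 0.17). Zfp106, an RNA-binding protein needed in motor neurons, fell under all 5, by 0.37 to 0.60, of which the arginine call was lost without Control replicate 1 or NoArginine replicate 1 or 2 (adjusted p 0.052 to 0.12) and the methionine call without NoMethionine replicate 3 (adjusted p 0.053).

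**Figure D4:**
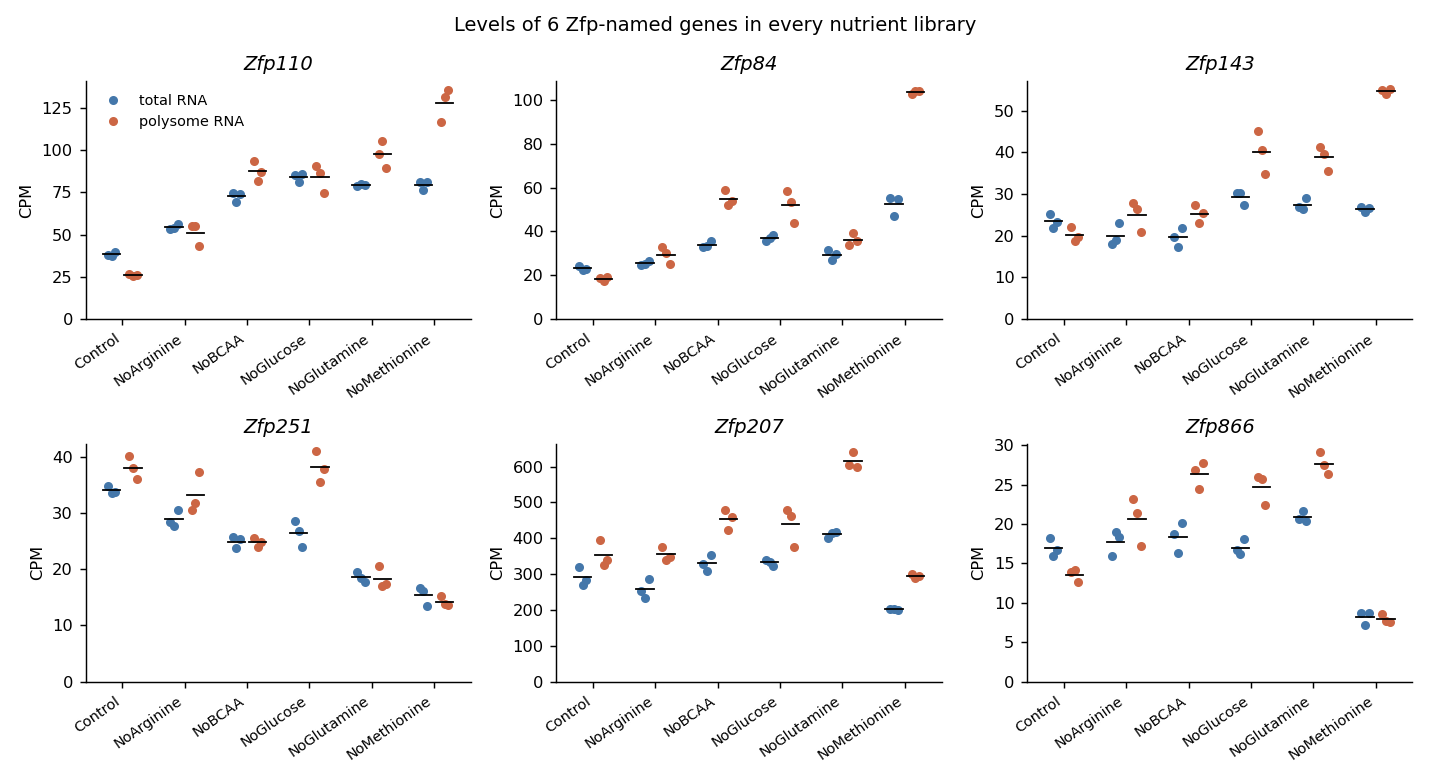
Levels in CPM (TMM-scaled) of Zfp110, Zfp84, Zfp143, Zfp251, Zfp207 and Zfp866 in each of the 36 nutrient libraries, with a black line at the mean of the 3 libraries of a group (total RNA blue, polysome RNA orange). Zfp84 reaches 103 to 104 CPM in the polysomes without methionine, and Zfp866 is at 7.55 to 8.54 CPM there, below Control.

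The ratio of polysome to total RNA was tested in 1 model over both fractions. In the Control cells themselves the ratio was tested against equal TMM-scaled levels in both fractions. It was called below equality for 96 members and above it for 60 (37.6% above and 28% below among all genes, 65.7% in all). The member median was -0.11 against 0.09 for all genes. With ribosomal RNA rows left out the split was 25 above and 124 below, and with the RLE size factors of DESeq2 it was 35 above and 114 below. The split over all genes moved as well, from 4919 above and 3664 below to 3580 and 4419, and to 4124 and 4091. Zfp706 lay at 92.3, 96.2 and 93.3 CPM in the total RNA and 23.3, 24.3 and 22.0 in the polysomes of the same cells, a log2 ratio of -1.99 ± 0.07 (adjusted p 7.4e-21). Zfp609, a close relative of Zfp608, had the highest ratio, 0.89 ± 0.13.

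Under deprivation the ratio shifted upwards for more members than downwards. Without methionine 99 of 294 rose and 32 fell, where 19.2% and 29.9% of all genes did (49.1% in all). Without glucose 71 rose and 10 fell (8.84% and 16.9%, 25.8% in all), without glutamine 54 rose and 29 fell (9.98% and 25.2%, 35.2% in all), without BCAA 50 rose and 18 fell (8.03% and 18.9%, 26.9% in all), and without arginine 35 rose and 1 fell (6.72% and 9.81%, 16.5% in all). Member medians were 0.19, 0.22, 0.14, 0.14 and 0.13 in that order, and the medians of all genes were -0.13, -0.07, -0.15, -0.12 and -0.04. Leaving out 4 ribosomal RNA rows, which make up 0.892% to 5.11% of the nutrient total RNA and 0.0755% to 0.285% of the polysome RNA, moved the medians of all genes up by over 0.1, to -0.01, 0.05, 0.01 and 0.01 without methionine, glucose, glutamine and BCAA. The splits were then 122 higher and 20 lower without methionine, 92 and 9 without glutamine and 68 and 7 without BCAA, so the number of members with a falling ratio depends on that scaling. The calls over all genes moved as well, from 2512 higher and 3904 lower to 3231 and 3159 without methionine, from 1305 and 3297 to 2273 and 1898 without glutamine, from 1156 and 2214 to 1931 and 1288 without glucose, from 1050 and 2468 to 1813 and 1185 without BCAA and from 879 and 1283 to 1395 and 892 without arginine. Falls thus outnumber rises among all genes in the first scaling and not in the second. RLE size factors gave 85 and 10 without glutamine. Of these counts in either direction, the 36 for arginine became 19 when Control replicate 1 was left out, 17 for Control replicate 3, 5 for NoArginine replicate 1 and 12 for NoArginine replicate 2. The 68 without BCAA was 44 without Control replicate 3 and 43 without NoBCAA replicate 1. The 81 without glucose was 52 without NoGlucose replicate 1 or 2, and the 83 without glutamine was 51 without Control replicate 3.

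Without methionine Zfp143, which activates small nuclear RNA and many messenger RNA promoters, changed mostly in the polysomes. Its total RNA stood at 25.2, 21.8 and 23.2 CPM in Control and at 26.8, 25.7 and 26.6 without methionine, a change that was not called (0.17 ± 0.10). In the polysomes it went from 22.0, 18.7 and 19.7 to 54.9, 54.0 and 55.3 CPM. All methionine libraries lay above Control in the polysomes, and the ratio rose by 1.18 ± 0.14 (adjusted p 3.7e-08). Without arginine, BCAA, glucose and glutamine the ratio rose by 0.53, 0.47, 0.59 and 0.58, and the methionine rise was larger than the arginine one by 0.65 (adjusted p 0.00094) and than the BCAA one by 0.71 (adjusted p 0.00071). The arginine call of the ratio was lost without NoArginine replicate 1 or 2 (adjusted p 0.16 and 0.075) and its BCAA call without NoBCAA replicate 1 (adjusted p 0.063). In total RNA the gene was called without glucose, but not once Control replicate 2 was left out (adjusted p 0.053). Its polysome call was lost without arginine in 4 settings that left out 1 library (adjusted p 0.064 to 0.15). The same held without BCAA in 2 settings (adjusted p 0.066 and 0.074).

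Zfp953 showed the same kind of change at a low level. Its total RNA was not called under any deprivation, with log2 changes of -0.37 to 0.18. Its polysome RNA went from 2.78, 2.46 and 2.37 CPM in Control to 6.18, 5.52 and 6.02 without BCAA and 4.76, 5.62 and 5.3 without glutamine, and the ratio rose under all 5 deprivations, by 0.86 ± 0.19 to 1.13 ± 0.19.

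The ratio of Zfp263, another DNA-binding regulator, rose by 0.36 without arginine, 0.47 without BCAA, 0.58 without glucose, 0.52 without glutamine and 0.90 without methionine, the arginine call being lost without NoArginine replicate 1 (adjusted p 0.075). Zfp110 and Zfp84, which rose in total RNA under 5 and 4 deprivations, had higher ratios under all 5, up to 1.15 and 1.25 without methionine. The ratio of Zfp267 rose by 1.26 and that of Zfp60 by 0.96 without methionine, while that of Zfp959, whose total RNA rose by more than 1 log2 unit, was lower there by 0.40.

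Ratios also fell in some members whose total RNA had risen. Zfp68 rose in total RNA from 32.0, 34.1 and 34.6 CPM to 51.6, 51.9 and 59.8 without BCAA and to 55.2, 59.2 and 64.9 without glutamine. Its polysome level moved only from 24.2, 29.6 and 25.5 to 30.1, 27.5 and 28.3 and to 32.4, 30.4 and 33.4. Its ratio fell by 0.70 ± 0.11 in both. Zfp511 had a falling ratio under all 5 deprivations, by 0.55 to 0.84, of which the arginine call was lost without NoArginine replicate 1 (adjusted p 0.072). Zfp414 had a ratio lower by 1.21 ± 0.19 and Zfp639 by 0.87 ± 0.10 without methionine. Zfp457, which rests on a total of 105 reads, had the most extreme ratios without glutamine and methionine (2.81 ± 0.98 and 2.03 ± 0.79), and both calls were lost when 1 of several libraries was left out (adjusted p up to 0.23).

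**Figure D5:**
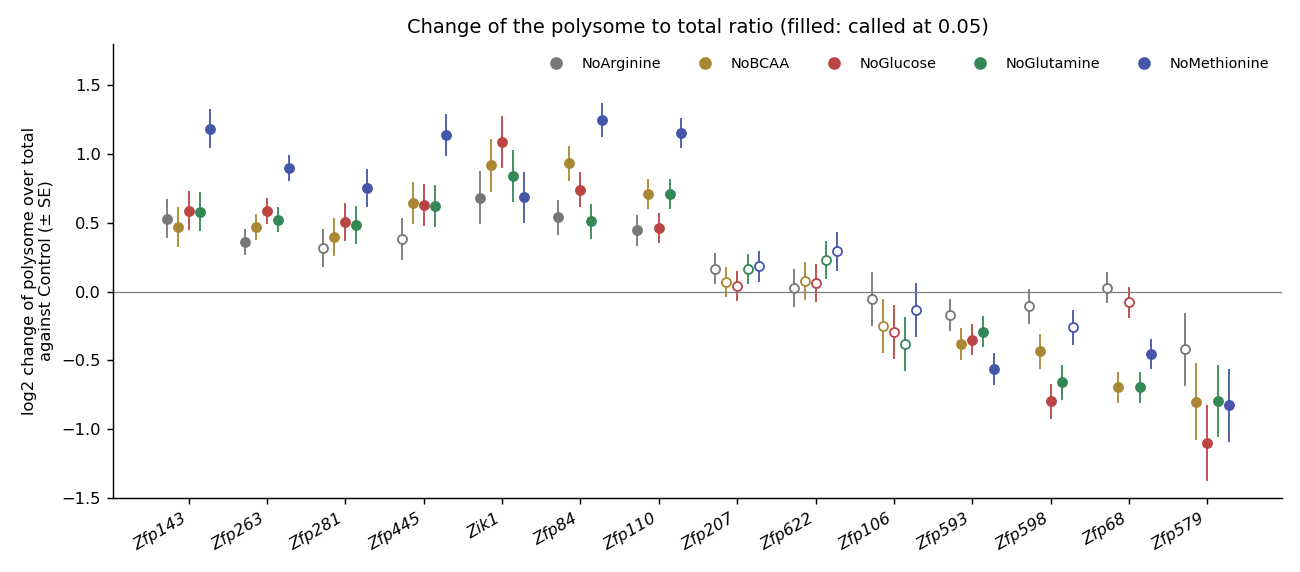
log2 change of the polysome to total ratio against Control (± SE) for 14 members, 1 colour for each of the 5 deprivations, filled where called at an adjusted p of 0.05. Zfp143, Zfp263, Zfp84 and Zfp110 are above 0 and called in each, while the called points of Zfp593, Zfp598, Zfp68 and Zfp579 are below 0.

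The members with a role at the ribosome moved in different ways. Zfp622, which helps to mature the large ribosomal subunit in the cytosol, rose in total RNA from 51.5, 40.5 and 43.6 CPM in Control to 94.2, 83.2 and 86.7 without glutamine (log2 change 0.96 ± 0.10, adjusted p 1.1e-07). It rose by 0.77 without glucose and 0.57 without BCAA, and its changes of 0.09 without arginine and 0.12 without methionine were not called. Its polysome RNA rose with it, by 1.33 without glutamine, and its ratio was not called under any deprivation.

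Zfp598, the ubiquitin ligase that marks collided ribosomes, rose in total RNA by 0.35 without BCAA, 0.39 without glucose and 0.67 without glutamine. Its polysome level did not follow: 65.6, 55.2 and 69.0 CPM in Control against 50.5, 47.4 and 53.9 without glucose, all 3 below Control. The ratio fell by 0.80 ± 0.13 without glucose and 0.66 ± 0.13 without glutamine, and by 0.43 ± 0.13 without BCAA, where the call was lost with ribosomal RNA rows left out (adjusted p 0.083), without Control replicate 3 (0.10) and without NoBCAA replicate 1 (0.072). Zfp593, a factor for large-subunit export, had a ratio lower by 0.56 ± 0.12 without methionine. Its ratios without BCAA, glucose and glutamine, -0.38, -0.35 and -0.29, lost their calls with ribosomal RNA rows left out (adjusted p 0.13, 0.16 and 0.42).

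Zfp207, known as BuGZ and needed for spindle assembly, moved in opposite directions under 2 deprivations. Its total RNA was 320, 269 and 285 CPM in Control, 401, 414 and 417 without glutamine and 202, 202 and 200 without methionine. The groups were apart on both sides, with log2 changes of 0.50 ± 0.07 and -0.53 ± 0.08. In the polysomes the changes were 0.80 ± 0.09 and -0.26 ± 0.09, the latter not called without Control replicate 1 (adjusted p 0.089).

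Among the retroelement and imprinting regulators, Zfp809, which recognises the primer-binding site of murine leukaemia viruses and recruits TRIM28 there, rose in the polysomes under all 5 deprivations. Its polysome level was 17.8, 18.3 and 18.3 CPM in Control and 36.5, 37.2 and 35.9 without glucose (log2 change 1.01 ± 0.08), with no overlap. It rose by 0.95 without BCAA, 0.85 without methionine, 0.32 without arginine and 0.31 without glutamine. Zfp445, which with Zfp57 keeps imprints, rose from 55.5, 51.0 and 51.2 to 159, 144 and 142 CPM in the polysomes without methionine. Its polysome change there was 1.5 ± 0.10 and its ratio 1.14 ± 0.15, while its total RNA change of 0.27 ± 0.11 was not called. Zfp568, which silences a placental Igf2 transcript, rose in the polysomes by 0.70 without glutamine and 0.52 without methionine. Zfp932, which binds endogenous retroviruses, fell by 0.41 in total RNA without glucose, and in the polysomes by 0.37 without methionine (not called without NoMethionine replicate 3, adjusted p 0.072).

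Among the members known from lymphocytes, Zfp683 (Hobit, a regulator of tissue-resident T cells) stood at 1.14, 1.58 and 1.75 CPM in the Control total RNA and at 2.91, 3.43 and 2.91 without glucose. The libraries did not overlap, and the log2 change was 1.04 ± 0.19 (adjusted p 0.00021). In the polysomes it rose by 1.21 without glucose, 1.04 without methionine and 0.76 without glutamine. Zfp335, needed for thymocyte maturation, rose by 0.28 in total RNA without glucose. Zfp91, a ubiquitin ligase of the non-canonical NF-kB pathway, fell by 0.45 in total RNA without glucose and rose by 0.40 in the polysomes without glutamine. Zfp318, which controls IgD splicing in B cells, was called in 1 of the 10 deprivation tests of total and polysome RNA, at 0.30 in the polysomes without glucose, and that call was lost without Control replicate 2 or 3 or NoGlucose replicate 1 or 2 (adjusted p 0.054 to 0.17). Zfp281, a regulator of stem cell pluripotency, was not called in total RNA under any deprivation. Its polysome RNA rose from 80.1, 65.9 and 63.9 CPM to 141, 128 and 131 without methionine (log2 change 0.93 ± 0.11).

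Of the other regulators, Zfp410, which activates the chromatin remodeller gene Chd4, rose in total RNA by 0.47 without glutamine and by 0.33 without BCAA. Zfp219 rose in the polysomes by 0.80 without glutamine, and Zfp703 by 0.84 in total RNA without methionine. Zfp652 fell in total RNA under 4 deprivations, by 0.40 to 0.59. Zfp346, which binds double-stranded RNA, rose in total RNA by 0.50 without BCAA, 0.55 without glutamine and 0.51 without methionine, and its change without glucose was -0.03. Zik1, named for its binding to hnRNP K, rose in the polysomes from 3.72, 3.79 and 3.51 CPM to 8.84, 7.6 and 7.58 without glucose (log2 change 1.12 ± 0.11), where its total RNA change was -0.05 ± 0.15.

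Halofuginone gave 0 called members of 289 in total RNA, 0 of 283 in the polysomes and 0 of 289 in the ratio by edgeR, and 0 by DESeq2 in each. At an unadjusted p under 0.05 there were 26, 37 and 21 members, and 1080 of 12535, 1481 of 12223 and 675 of 12745 among all genes. After adjustment 0.279%, 0.0491% and 0% of all genes were called. The summed level of the members was 4654 ± 91.3 CPM in the DMSO total RNA and 4689 ± 131 under halofuginone, a difference smaller than the spread.

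Under 4EGi1, 70 of 289 members rose and 9 fell in total RNA, where 14.1% and 12.3% of all genes did (26.4% in all). In the polysomes 66 of 283 rose and 13 fell (14.1% and 14.5% of all genes, 28.6% in all). The total of 79 in the total RNA was 46 without 4EGi1 replicate 3 and 52 without DMSO replicate 4, and the 79 in the polysomes was 52 without 4EGi1 replicate 2, whose label carries an added R, and 51 without 4EGi1 replicate 4. Under Torin 54 rose and 19 fell in total RNA (13.3% and 13.3%, 26.7% in all), a sum of 73 that was 48 without Torin replicate 1 and 48 without Torin replicate 3. In the polysomes 38 rose and 4 fell (8.48% and 8.3%, 16.8% in all), a sum of 42 that was 20, 17 and 24 without Torin replicates 1, 3 and 4, of which replicate 3 also carries an R. Member medians were 0.23 and 0.29 under 4EGi1 and 0.14 and 0.26 under Torin in total and polysome RNA. The summed B cell markers were higher under Torin than in DMSO, at 140 to 142 against 113 to 122 CPM in total RNA and 71.7 to 77.4 against 52.5 to 63 in the polysomes, and their part in these counts was not tested. The drug tests share the 3 DMSO libraries.

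Zfp207 fell under 4EGi1 from 280, 222 and 249 CPM to 131, 148 and 155 in total RNA and from 400, 295 and 328 to 126, 152 and 183 in the polysomes. The groups were far apart in both, and the log2 changes were -0.79 ± 0.10 and -1.15 ± 0.16 (adjusted p 1.5e-05 and 8.6e-05). Under Torin its changes of -0.21 and -0.33 were not called, and the drugs differed by 0.58 in total RNA (adjusted p 0.00015) and 0.82 in the polysomes (adjusted p 0.0010). Zfp687 fell under 4EGi1 from 14.4, 18.5 and 12.5 to 7.54, 6.61 and 7.21 CPM in total RNA (-1.08 ± 0.13). Zfp296 fell by 1.10 ± 0.17 in the polysomes.

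Zfp445 rose in the polysomes under 4EGi1 from 18.6, 19.0 and 23.9 to 43.4, 38.4 and 40.6 CPM (1.00 ± 0.16, adjusted p 0.00027), more than under Torin by 0.63 (adjusted p 0.0064). Zik1 rose there from 0.915, 0.256 and 0.997 to 3.33, 2.18 and 2.92 CPM (1.92 ± 0.47). Zfp759, which rose under every deprivation in the polysomes, rose by 1.61 ± 0.40 under 4EGi1 and by 1.70 ± 0.39 under Torin. Zfp14 rose by 2.22 ± 0.50 under 4EGi1, with all 3 libraries above 1.4 CPM against at most 0.577 in DMSO.

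Zfp608, linked to repression of the Rag genes in thymocytes, had the steepest rise under Torin in total RNA, from 6.06, 4.16 and 5.60 to 14.5, 11.5 and 19.5 CPM (1.52 ± 0.22, adjusted p 6.7e-05), and it rose by 1.36 ± 0.31 in the polysomes. Under 4EGi1 its total RNA change of -0.09 ± 0.24 was not called. Zfp710 fell under Torin from 8.26, 6.82 and 8.59 to 4.46, 3.56 and 3.74 CPM (-1.01 ± 0.16). Zfp281 rose under Torin by 0.46 in total RNA and 0.87 in the polysomes. Zfp593 fell in the polysomes from 144, 180 and 138 CPM to 84.0, 97.8 and 82.5 under 4EGi1 (-0.81 ± 0.16).

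Few ratios of polysome to total RNA were called under the drugs. Under 4EGi1 it rose in 2, Zfp871 (1.00 ± 0.20, adjusted p 0.015) and Zfp445 (0.80 ± 0.17, adjusted p 0.032), and fell in 0, where 0.282% and 0.282% of all genes were called in each direction (0.565% in all). That count of 2 was 0 without 4EGi1 replicate 2, 4EGi1 replicate 4 or DMSO replicate 3, 1 without DMSO replicate 1 and 4 without DMSO replicate 4. Total and polysome RNA came from the same lysates, and with the lysate as a block 10 members rose and 2 fell under 4EGi1, while over all genes 451 rose and 179 fell, against 36 and 36 without the block. Under Torin it fell in 1, Zfp330 (-0.58 ± 0.15, adjusted p 0.045), and rose in 0, against 0.118% higher and 1.67% lower of all genes (1.79% in all), and that call was lost without DMSO replicate 1 or 3 or any Torin library (adjusted p 0.13 to 0.22). With the lysate as a block 1 rose and 1 fell under Torin, and 59 and 271 over all genes, against 15 and 213. In the DMSO cells the ratio was called above equal scaled levels for 32 members and below for 140 (28.4% and 30.9% of all genes, 59.3% in all). The member median there was -0.52 against -0.07 for all genes. Zfp593 had the highest ratio there, 1.67 ± 0.14. Among the lowest were Zfp174, whose DMSO polysome level was only 0 to 0.059 CPM, and Zik1 at -2.27 ± 0.37.

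Position in the genome and promoter make-up were set beside these changes as descriptions. In RefSeq order, 159 of the 287 members matched as protein-coding lay directly beside another Zfp-named gene and 128 did not. Called higher in the polysomes were 53.2%, 69.6%, 75.3%, 65.8% and 69.0% of the former without arginine, BCAA, glucose, glutamine and methionine, and 33.6%, 58.6%, 60.9%, 60.9% and 62.5% of the latter, where 19%, 28.7%, 29.6%, 32.2% and 34.3% of all genes were. In total RNA the shares were alike without arginine (6.96% and 7.03%, all genes 5.1%) and BCAA (36.7% in both, all genes 16.4%). They were 51.9% and 45.3% without glucose (all genes 21.8%), 41.1% and 39.8% without glutamine (20.4%) and 53.8% and 44.5% without methionine (19.5%). Under 4EGi1 the order was the opposite, with 18.3% and 30.9% in the polysomes (all genes 14.1%) and 21.9% and 28.3% in total RNA (all genes 14.1%). None of these differences was tested. The longest run of members in gene order was of 15, from Zfp84 to Zfp146, of which 8, 11, 13, 11 and 10 rose in the polysomes and 0, 0, 0, 1 and 1 fell, for arginine, BCAA, glucose, glutamine and methionine. In the run of 8 from Zfp455 to Zfp459, of which 7 were tested, 4, 6, 5, 5 and 6 rose and 0 fell. In the run of 7 from Zfp760 to Zfp994, 6, 7, 5, 7 and 5 rose, and 1 fell without methionine. In the run of 7 from Zfp677 to Zfp983, 3, 4, 6, 6 and 5 rose, and 1 fell without BCAA and 1 without glucose. In the run of 7 from Zfp786 to Zfp746, 5, 5, 5, 4 and 7 rose, and 1 fell without glutamine. In the run of 7 from Zfp180 to Zfp94, 6, 4, 6, 2 and 6 rose. In the run of 5 from Zfp738 to Zfp273, 3, 5, 5, 4 and 5 rose. Members whose promoter window had a GC content under the median of 53.6% were called higher in the polysomes in 56.4%, 70.9%, 76.1%, 71.8% and 70.1% of cases, and those at or above it in 34.4%, 57.6%, 62.4%, 56.0% and 60.8%, in the same order of nutrients. In total RNA the pair of shares was closer, from 6.84% and 8.8% without arginine to 50.4% and 49.6% without methionine, and no difference was tested.

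The partners through which KRAB zinc finger proteins silence chromatin were changed in both directions. In the polysomes, of 18 listed co-repressor genes in the table, 10 rose and 5 fell without glucose, 11 and 5 without glutamine and 10 and 4 without methionine, where 29.6% and 29.4%, 32.2% and 32.4% and 34.3% and 34.7% of all genes did. Without BCAA 5 rose and 5 fell and without arginine 4 and 3, shares near those of all genes (28.7% and 27.4%, 19% and 21.6%). In total RNA 0, 2, 4, 6 and 1 rose and 1, 4, 6, 3 and 7 fell, for arginine, BCAA, glucose, glutamine and methionine. Of all genes 5.1%, 16.4%, 21.8%, 20.4% and 19.5% rose there and 4.14%, 13.6%, 19%, 18.6% and 15.7% fell. Setdb1, the histone methyltransferase, rose in the polysomes by 0.36 to 1.16 under all 5 deprivations, and Resf1, which stabilises it, by 0.68 to 1.99. Trim28 itself rose there by 0.63 without methionine. The heterochromatin protein gene Cbx3 fell in the polysomes under all 5, by 0.43 to 1.19. Of 17 Zscan and Zkscan genes, C2H2 genes with a SCAN dimerisation domain, 11, 14, 17, 14 and 15 rose in the polysomes and 0, 1, 0, 2 and 1 fell, in the same order of nutrients. Of 32 Zbtb genes, whose fingers come with a BTB domain, 17 rose and 6 fell in the polysomes without glucose. Of 13 Klf and Sp genes 4 rose and 4 fell there, close to the 29.6% and 29.4% of all genes. Without arginine, BCAA, glutamine and methionine 7, 6, 7 and 6 of the 13 rose in the polysomes and 1, 2, 3 and 3 fell. Of the Zbtb genes 10, 16, 18 and 18 rose and 1, 4, 4 and 8 fell under these 4 deprivations. Of 5 Ikzf genes 1, 4, 4, 4 and 4 rose and 0 fell, for arginine, BCAA, glucose, glutamine and methionine. Of 23 Zfp genes with a letter after the digits, 14, 15, 15, 15 and 14 rose and 2, 3, 4, 4 and 3 fell.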

How the data were processed

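RNA-seq of total and pooled polysome RNA was analysed for 60 of the 78 samples, and the 18 monosome samples were not analysed here. The deposited table holds raw read counts per Ensembl gene, 14695 rows of which 449 have no symbol. Per the submitters' processing notes, the authors used FastQC, MultiQC, Trimmomatic, STAR, HTSeq and edgeR on GRCm39, with roles and order not given in the sources used here. Counts were filtered with filterByExpr (minimum count 10), scaled by TMM and tested with edgeR 4.0.16 (quasi-likelihood, limma 3.58.1, R 4.3.3), with Benjamini-Hochberg adjustment over all genes at 0.05. Total RNA, polysome RNA and their ratio (both fractions in 1 model with an interaction) were fitted in each experiment apart, 26 comparisons in all. Named genes are the 4 steepest called in each direction per comparison plus a list of members with known roles. The members and lists were chosen with earlier results of these data known. The scripts were checked on simulated data. Alternatives were RLE size factors, DESeq2 1.42.0, no filter, ribosomal RNA rows left out, each library left out, a replicate block and a lysate block. Protein classes were not used here. Library size and 3 libraries a group limit the precision.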

Additional observations from a re-analysis of the deposited data

Results flagged for a closer look

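Of the named members, 19 genes were called in opposite directions in 2 conditions of the same experiment and fraction, with the difference between those conditions called as well (edgeR, Benjamini-Hochberg). There were 48 such pairs of conditions, and the pair with the widest difference is given for each of 24 genes and fractions, 22 of them in the nutrient experiment. The conditions of a pair share their control libraries. Each difference below is in log2 units (± SE), the first condition minus the second, followed by the change of each condition against its control.

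Torin was set against 4EGi1. Zfp148 differed by -0.51 ± 0.08 in total RNA (adjusted p 9.2e-05), with changes of -0.27 and 0.24. The Torin call was lost without Torin replicate 1 (adjusted p 0.0778), and the 4EGi1 call without 4EGi1 replicate 2 or 3, without any DMSO library, with no filter and with the replicate block (adjusted p 0.0557 to 0.163). Zfp251 differed by -1.11 ± 0.18 in polysome RNA (adjusted p 0.00028), with changes of -0.57 and 0.54. Its Torin call was lost without DMSO replicate 1 or 4 or any Torin library (adjusted p 0.0631 to 0.22).

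Deprivation of glutamine was set against that of methionine. Zfp207 differed by 1.06 ± 0.09 in polysome RNA (adjusted p 2.3e-08), with changes of 0.8 and -0.26. Its methionine call was lost without Control replicate 1 (adjusted p 0.0895). Zfp207 differed by 1.03 ± 0.08 in total RNA (adjusted p 6.3e-09), with changes of 0.5 and -0.53. Zfp267 differed by -0.88 ± 0.1 in total RNA (adjusted p 2.7e-06), with changes of -0.39 and 0.49. Zfp296 differed by -0.99 ± 0.11 in polysome RNA (adjusted p 9.8e-07), with changes of -0.52 and 0.48. Zfp760 differed by 2.05 ± 0.17 in polysome RNA (adjusted p 3.3e-08), with changes of 1.05 and -1.01. Zfp866 differed by 1.8 ± 0.1 in polysome RNA (adjusted p 3.5e-10), with changes of 1.03 and -0.77. Zfp866 differed by 1.35 ± 0.1 in total RNA (adjusted p 1.1e-08), with changes of 0.3 and -1.05.

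Deprivation of glucose was set against that of methionine. Zfp217 differed by -1.2 ± 0.1 in polysome RNA (adjusted p 2.1e-08), with changes of -0.7 and 0.51. Zfp639 differed by 0.98 ± 0.08 in polysome RNA (adjusted p 1e-08), with changes of 0.42 and -0.56.

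Deprivation of glucose was set against that of glutamine. Zfp3 differed by 1.17 ± 0.16 in polysome RNA (adjusted p 1.2e-05), with changes of 0.46 and -0.71. Zfp324 differed by 1.59 ± 0.11 in polysome RNA (adjusted p 3.7e-09), with changes of 0.97 and -0.62. Zfp326 differed by -0.81 ± 0.11 in polysome RNA (adjusted p 6.5e-06), with changes of -0.54 and 0.27. Its glutamine call was lost without Control replicate 2 or 3 or NoGlutamine replicate 1 (adjusted p 0.0675 to 0.19). Zfp395 differed by 1.69 ± 0.17 in polysome RNA (adjusted p 2.6e-07), with changes of 0.42 and -1.27. Zfp60 differed by 0.69 ± 0.1 in total RNA (adjusted p 3.1e-05), with changes of 0.37 and -0.32. Zfp839 differed by 1.08 ± 0.11 in polysome RNA (adjusted p 2.3e-07), with changes of 0.44 and -0.64. Zfp91 differed by -0.69 ± 0.1 in polysome RNA (adjusted p 3.1e-05), with changes of -0.29 and 0.4. Its glucose call was lost without Control or NoGlucose replicate 2 (adjusted p 0.062 and 0.0672).

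Deprivation of BCAA was set against that of glucose. Zfp324 differed by -1.11 ± 0.14 in total RNA (adjusted p 3.6e-06), with changes of -0.62 and 0.48. Zfp346 differed by 0.62 ± 0.08 in polysome RNA (adjusted p 7.9e-06), with changes of 0.39 and -0.23. Its glucose call was lost without Control or NoGlucose replicate 1 or 3 (adjusted p 0.0516 to 0.0663). Zfp52 differed by -0.84 ± 0.08 in polysome RNA (adjusted p 3.3e-07), with changes of -0.19 and 0.64. Zfp52 differed by -0.78 ± 0.07 in total RNA (adjusted p 1.8e-07), with changes of -0.43 and 0.34. Zfp687 differed by -0.82 ± 0.12 in polysome RNA (adjusted p 2.5e-05), with changes of -0.36 and 0.45. Zfp687 differed by -0.81 ± 0.12 in total RNA (adjusted p 3.3e-05), with changes of -0.49 and 0.33.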

How the results depend on the processing

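The 392 changes of named members were recomputed under each alternative, and 0 reversed. Of them 277 kept their call in every setting and 115 lost it in at least 1. Other changes quoted for these genes, neither among the 4 steepest nor of a gene with a listed role, were not recomputed. RLE size factors ended 15 calls, ribosomal RNA rows left out 16, no filter 9 and DESeq2 15. The ratio under Torin had 0 called members with no filter, and under 4EGi1 it had 5 by DESeq2. Leaving out 1 library at a time gave 10 to 19 called members in total RNA without arginine. For the ratio it gave 5 to 50 without arginine, 43 to 67 without BCAA, 52 to 79 without glucose and 51 to 77 without glutamine. Under 4EGi1 it gave 46 to 75 in total RNA, 51 to 70 in the polysomes and 0 to 4 in the ratio, and under Torin 48 to 66, 17 to 38 and 0 to 1. The scaling moved the ratio splits, as given beside them.

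Same-numbered libraries of other conditions had correlated deviations from -0.432 to 0.737. The mean correlations were positive, at 0.12 and 0.21 in nutrient total and polysome RNA and 0.18 and 0.13 in the drug experiment. The main fits did not take the numbers as pairs, so an effect shared by same-numbered libraries was left in their spread. With the number as a replicate block, 259 of 265 named changes kept their call, and the called members were 26, 131, 170, 154 and 166 in total RNA and 151, 215, 222, 211 and 230 in polysome RNA, for arginine, BCAA, glucose, glutamine and methionine. With the shared lysate as a block, 127 of 127 named ratio changes kept their call, and the ratio had 2 called members under Torin and 12 under 4EGi1. Counts of weakly expressed members are the least precise, and with 3 libraries a group small changes may go uncalled.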
